A study of Homo sapiens with 4 samples.

Results

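The regions described here lie at 10 genes that estradiol is known to induce in estrogen-responsive epithelial cells: GREB1, PGR, TFF1, MYC, CCND1, NRIP1, XBP1, CXCL12, CA12 and SIAH2. A region belongs to a gene when it overlaps a fixed hg19 window, the gene body plus about 50 kb on each side. The windows add up to 1.48 Mb. Of the 15269 accessible regions that the authors called in 4 libraries, 11 lay in these windows: 0 with vehicle, 6 after dexamethasone, 5 after estradiol and 0 after both hormones together.

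The assay was ATAC-seq, which uses a transposase to insert adapters into open DNA, and the cells were Ishikawa cells, an established line from a human endometrial adenocarcinoma. Cells kept for at least 4 days in phenol red-free medium with hormone-stripped serum received DMSO as vehicle, 100 nM dexamethasone (a synthetic agonist of the glucocorticoid receptor), 10 nM 17-beta-estradiol, or dexamethasone and estradiol at the same doses, each for 1 hour. Each treatment had 1 library, so there was no spread between replicates, no test was possible, and every difference below is a difference between single libraries. In a population assay, opening in more cells and wider opening in the same cells cannot be told apart.

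Estradiol acts through the estrogen receptor, a nuclear receptor that binds palindromic response elements, more often at distal sites far from the genes it regulates than at their promoters. The glucocorticoid receptor recruits many of the same coactivators and remodelers. In endometrium, estradiol drives epithelial growth and induces the progesterone receptor, and glucocorticoids are known to modify part of the estrogen response.

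The libraries differed in depth and in quality measures. They held between 8240912 and 20185339 tags after duplicate removal, with the combination lowest and estradiol highest, and modelled fragment lengths ran from 51 bp (combination) to 104 bp (vehicle). The lists held 1923 regions with vehicle, 8428 after dexamethasone, 4772 after estradiol and 146 after the combination. The lowest pileup (the number of extended tags over a region's summit) in a list was 10 with vehicle, 11 after dexamethasone, 10 after estradiol and 8 after the combination. A missing call therefore means only that a site stayed below the threshold of that library.

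At the mean density of each list over the 2700 Mb effective genome, 1.48 Mb would hold 1.05 vehicle regions, 4.62 dexamethasone regions, 2.62 estradiol regions and 0.0800 combination regions. Observed were 0, 6, 5 and 0. Dexamethasone regions lay at 4.05 per Mb in the windows and 3.12 per Mb over the genome, and estradiol regions at 3.38 and 1.77 per Mb. These densities were not tested against each other.

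**Figure D1:**
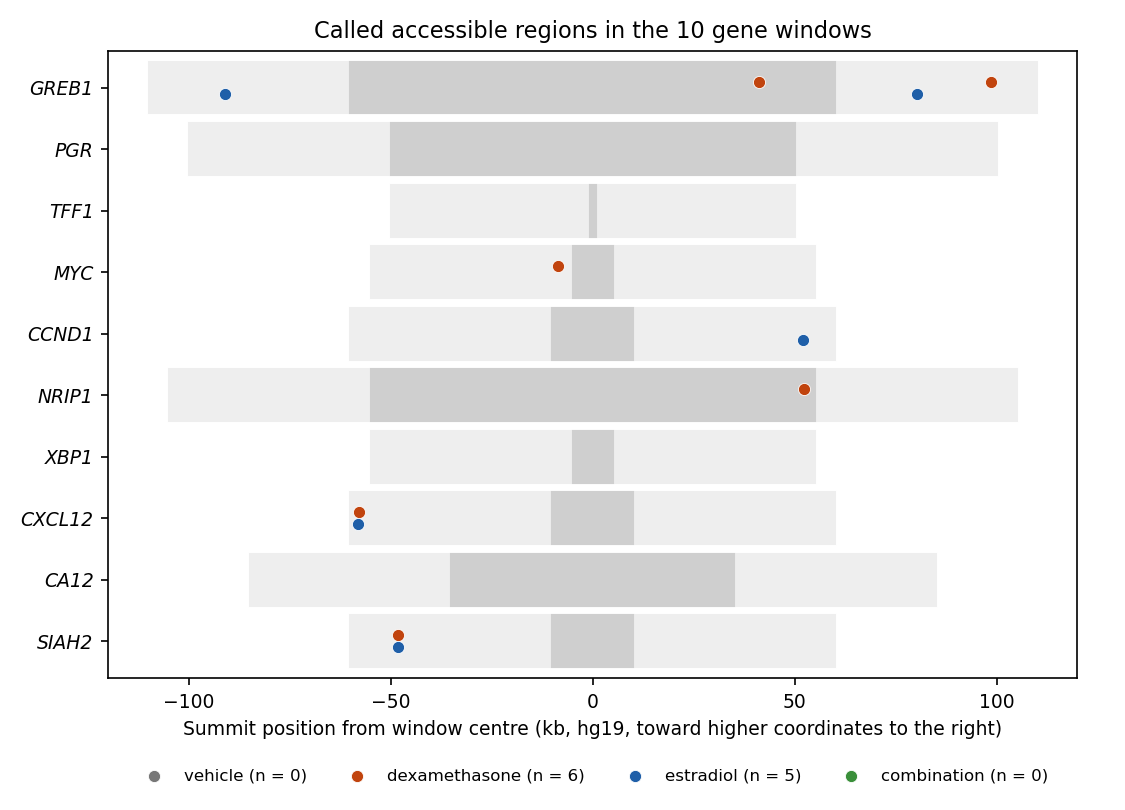
Summits of the called regions in each gene window, in kb from the window's centre, with 1 point per region and 1 colour per library. Pale bars are the windows and dark bars the gene bodies implied by removing 50 kb from each side (drawn at a minimum width for TFF1); 6 of the 10 windows hold a region, and no vehicle or combination region appears.

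Of the 10 genes, 6 had a region in at least 1 library and 4 (PGR, TFF1, XBP1 and CA12) had none. Merging overlapping regions left 9 distinct sites: 4 called after dexamethasone alone, 3 after estradiol alone and 2 after each hormone given singly. Because the vehicle list held nothing in the windows, all 6 dexamethasone and all 5 estradiol regions lacked a vehicle counterpart. Over the whole lists, 78.0% of dexamethasone regions and 64.8% of estradiol regions overlapped no vehicle region, so the absence of a vehicle call is also the usual state of these lists. In the dexamethasone list that share rose from 21.0% in the strongest decile by p-value to 97.0% in the weakest, and 4 of the 6 regions were in the weaker 50% of that list. In the estradiol list it rose from 17.0% to 86.2%, and 2 of the 5 regions were in the stronger 50%.

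The gene bodies implied by the windows are rounded to about 10 kb, so distances to them are approximate. Of the 6 dexamethasone regions, 2 lay inside such a body (GREB1 and NRIP1). None of the 5 estradiol regions did: they lay 20.1 to 47.9 kb beyond the nearest edge.

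GREB1, an estrogen receptor coactivator and one of the most strongly estrogen-induced genes known, had the most regions in its window, 2 after each single hormone, and no site was called in both lists. The strongest estradiol region of all 10 windows lay here, on chromosome 2 from 11638753 to 11638949 (hg19), 31.1 kb below the rounded gene body and on the side of E2F6, the next protein-coding gene in that direction. It had 22 tags over its summit, a 10.5-fold enrichment over its local background and rank 1392 of 4772 by p-value. The second estradiol region, from 11810098 to 11810186, lay 20.1 kb above the body and had 17 tags, 9.92-fold enrichment and rank 2631. NTSR2 and LPIN1 follow on that side, and whether the region lay in or at the start of NTSR2 was not determined. The first dexamethasone region, from 11771146 to 11771294, lay within the gene body and had 18 tags, 8.96-fold enrichment and rank 6220 of 8428. The second, from 11828561 to 11828695, lay 38.6 kb above the body and had 17 tags, 8.21-fold enrichment and rank 7302. The estradiol regions were thus in the stronger or middle part of their list and the dexamethasone regions in the weaker part of theirs.

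PGR encodes the progesterone receptor, a textbook readout of estrogen action in the uterus, and no library had a region in its window. The nearest sites were called after either single hormone 148.7 kb below the window, on the side of ARHGAP42. At the closer one, the dexamethasone region (100701139 to 100701311 on chromosome 11) had 31 tags and 11.7-fold enrichment and the estradiol region (100701151 to 100701275) 23 tags and 8.12-fold. With vehicle, the nearest region was 1089 kb away.

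NRIP1 encodes RIP140, a corepressor that ligand-bound nuclear receptors recruit, and its window held 1 region, after dexamethasone. It lay on chromosome 21 from 16437310 to 16437456, with 20 tags, 10.7-fold enrichment and rank 3753 of 8428, the best rank of the 6 dexamethasone regions. The summit was 2.63 kb inside the upper edge of the rounded gene body, and NRIP1 is transcribed from the reverse strand, so this is the end at which the gene starts. The MYC region, below, was the other one within 5 kb of the edge at which a gene starts. The estradiol list had nothing within 440 kb of this window.

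Because of that position, the RefSeq sequences upstream of NRIP1 start sites are shown, each the 250 bases before a start, 5′ to 3′ on the reverse strand. RefSeq gives 3 starts, and the build is GRCh38.p14 whereas the regions are on hg19, so whether the region covers either stretch was not determined. The outermost lies at chr21:15065937-15066186 and the next at chr21:15065001-15065250. Capitals mark the GGTCA element (TGACC on the opposite strand), one arm of the palindromic estrogen response element; the outermost stretch has none.
NRIP1 outermost start: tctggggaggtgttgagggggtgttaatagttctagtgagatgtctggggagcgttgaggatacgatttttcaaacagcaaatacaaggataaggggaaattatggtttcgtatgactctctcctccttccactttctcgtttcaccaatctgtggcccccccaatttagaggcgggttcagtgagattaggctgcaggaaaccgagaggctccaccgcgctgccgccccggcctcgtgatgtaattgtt
NRIP1 next start: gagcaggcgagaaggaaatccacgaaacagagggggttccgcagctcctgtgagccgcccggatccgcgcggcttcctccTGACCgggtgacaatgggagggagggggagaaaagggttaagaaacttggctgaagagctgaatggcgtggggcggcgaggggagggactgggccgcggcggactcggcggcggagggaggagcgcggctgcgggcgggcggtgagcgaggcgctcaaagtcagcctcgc

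The outermost stretch was 50.8% G and C and held 1 GC box (GGGCGG, either strand), and the next was 68.4% and held 4. The median over 35116 RefSeq promoter stretches of the same length was 58.0% (middle 50% from 46.4 to 68.0), and 42.6% of them held a GC box.

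Sequences were available for 6 of the 10 genes, in 11 stretches: CA12, CXCL12, NRIP1, PGR, SIAH2 and XBP1. A GGTCA element on either strand was present in 7 of the 11, at 5 of the 6 genes, and in 32.6% of all stretches (a share per stretch, not per gene). These 7 include 1 element counted under 2 overlapping PGR stretches. A sequence of 5 letters is common by base composition alone, and a match is not a binding site. Only exact letters were searched, so imperfect arms of an estrogen response element were not looked for. The 6 distinct elements are shown in capitals with up to 12 bases on each side.
CA12 (chr15:63382026-63382054): actgtgttcctgGGTCAgccctggcccag
CXCL12 (chr10:44385289-44385317): ggagcctgagaaGGTCAaaggccggagcg
NRIP1 (chr21:15065154-15065182): gcggcttcctccTGACCgggtgacaatgg
PGR (chr11:101129227-101129255): aagggcaggagcTGACCagcgccgccctc
XBP1 outermost start (chr22:28800734-28800762): ccccgcggaaaaTGACCccaagtaccttt
XBP1 inner start (chr22:28800111-28800139): ggaagcccggacTGACCggatccgccacg

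All 6 are on GRCh38.p14 and read on the reverse strand, from which each of these genes is transcribed. The full palindromic estrogen response element was in 0 of the 11 stretches and in 0.0399% of all. The glucocorticoid response element was in 0 and in 0.327%, and the AP-1 element TGANTCA in 0 and in 6.57%. Forkhead sequences were also absent: TGTTTAC was in 2.98% of all stretches and TATTTAC in 2.39%. The ETS element CCGGAAG (8.52% of all) and a CTCF core (8.90% of all) were in 0 of the 11 too. Besides GGTCA, only the GC box was present among the sequences searched, in 9 of the 11 stretches, at 5 of the 6 genes, and in 42.6% of all. These 9 include 2 overlapping PGR stretches that hold the same GC boxes. These windows cover only 250 bases before each start, and none of the called sites other than that at NRIP1 lay near one of these starts.

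MYC encodes a growth-promoting transcription factor that is an immediate early target of many signals, and its window held 1 region, after dexamethasone. It lay on chromosome 8 from 128746330 to 128746494, 3.51 kb below the rounded gene body, which for MYC is the upstream side. It had 19 tags but the lowest fold enrichment of the 6 dexamethasone regions, 6.56, and rank 8134 of 8428. Its local background was 2.05 tags, against a list median of 1.14, and 93.2% of dexamethasone regions had a lower one. Only 0.688% of the list had a lower fold enrichment, while 35.0% had a lower pileup.

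CCND1 encodes cyclin D1, which carries cells from G1 into S phase, and its window held 1 region, after estradiol. This region lay on chromosome 11 from 69512047 to 69512160, 42.05 kb above the rounded gene body, the side on which LTO1 and FGF19 follow. It had 16 tags, 8.03-fold enrichment and rank 4162 of 4772, so it was a weak member of its list. After dexamethasone, the nearest region was 87.8 kb outside the window on the opposite side.

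CXCL12 encodes the chemokine that signals through CXCR4, and its window held a site called after each single hormone. The dexamethasone region lay on chromosome 10 from 44812030 to 44812142, with 15 tags, 8.88-fold enrichment and rank 7113 of 8428. The estradiol region, from 44811956 to 44812062, had 12 tags, 7.51-fold enrichment and rank 4706 of 4772. The calls overlapped by 33 bp, 30.8% of the shorter region, and their summits were 90 bp apart. They were the members closest to a window edge, with summits 2.07 and 1.98 kb inside it and 47.9 and 48.0 kb from the gene body.

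SIAH2 encodes a ubiquitin ligase that is an early estrogen target, and its window held the other site called after each single hormone, near the middle of both lists by rank. The dexamethasone region lay on chromosome 3 from 150421729 to 150421836 (19 tags, 10.7-fold, rank 4079 of 8428). The estradiol region ran from 150421704 to 150421810 (17 tags, 10.5-fold, rank 2225 of 4772). They overlapped by 82 bp, 76.6% of the shorter, with summits 34 bp apart. They lay 38.2 kb below the rounded gene body, on the side of ERICH6, and whether they lay at the start of ERICH6 was not determined. Of the 2 shared sites, the SIAH2 site had the larger overlap and the better ranks.

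TFF1 encodes a secreted trefoil peptide whose promoter is a standard estrogen receptor target in breast cancer cells, and its window was empty in all 4 lists. The nearest site lay 76.4 kb above the window, on the side of TMPRSS3, UBASH3A and RSPH1, and was called in vehicle, dexamethasone and estradiol alike. On chromosome 21 its regions were 43916417 to 43916661 with vehicle (22 tags, 12.3-fold), 43916357 to 43916660 after dexamethasone (29 tags, 14.1-fold) and 43916426 to 43916658 after estradiol (26 tags, 13.4-fold). A site nearby was therefore open without hormone, while none was called around TFF1 itself. Whether that site lay at the start of RSPH1 or another neighbour was not determined.

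XBP1, a transcription factor of the unfolded protein response, and CA12, a membrane-bound carbonic anhydrase, had no region in their windows either. For XBP1, a dexamethasone region just missed the window: it lay on chromosome 22 from 29137819 to 29137959, 2.04 kb outside the lower edge on the side of CCDC117, HSCB and CHEK2, with 14 tags, 7.38-fold enrichment and a place at 98.5% of its list by rank. Whether that region lay at the start of one of these 3 neighbours was not determined. After estradiol the nearest region to the XBP1 window was 714.6 kb away. For CA12, the nearest regions were 78.3 kb below the window after dexamethasone (18 tags, 10.98-fold), 432.9 kb above it after estradiol (14 tags, 9.21-fold) and 943.7 kb away with vehicle.

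**Figure D2:**
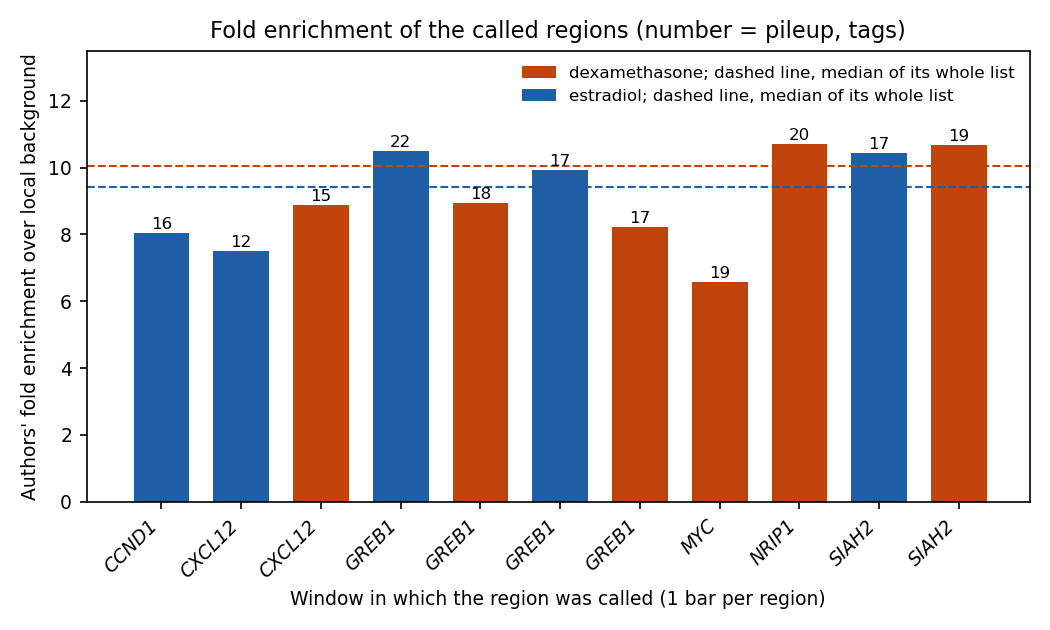
The authors' fold enrichment over local background for each of the 11 regions, 1 bar per region, with the pileup in tags above it. Dashed lines are the medians of the whole lists, 10.04 for dexamethasone and 9.43 for estradiol; the bars run from 6.56 at MYC to 10.7 at NRIP1, and fold values are comparable only within a list.

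Within their own lists the regions were of ordinary or low strength. The 6 dexamethasone regions had 15 to 20 tags (median 18.5, against 21.0 for the list) and fold enrichments of 6.56 to 10.7 (median 8.92, against 10.04). Only 2 of the 6, at NRIP1 and SIAH2, were in the stronger 50% of the list by p-value. The 5 estradiol regions had 12 to 22 tags (median 17.0, against 20) and fold enrichments of 7.51 to 10.5 (median 9.92, against 9.43), and again 2, at GREB1 and SIAH2, were in the stronger 50%.

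Next, the lists of the 2 single hormones were compared within the windows. Each list was called against its own background, so they share no control library. Of the 6 dexamethasone regions, 4 overlapped no estradiol region (66.7%, exact Clopper-Pearson 95% interval 22.3 to 95.7), and over the whole list 50.3% did not. Of the 5 estradiol regions, 3 overlapped no dexamethasone region (60.0%, 14.7 to 94.7), and over the whole list 11.3% did not. Intervals cover counting error only, and neighbouring regions of a gene are not independent. The 3 regions were both GREB1 sites and the CCND1 site.

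How often a region was shared depended on its strength, so each of the 5 was set beside the regions of its own strength. The stronger GREB1 region was in decile 3 of the estradiol list by p-value, where 94.97% of 477 regions overlapped a dexamethasone region (92.6 to 96.8). The other GREB1 region was in decile 6, where 89.5% did (86.4 to 92.1), and the CCND1 region in decile 9, where 80.9% did (77.1 to 84.4). The 2 shared regions, at SIAH2 and CXCL12, were in deciles 5 and 10, where 91.0% (88.1 to 93.4) and 74.9% (70.8 to 78.7) overlapped one. In all 5 deciles most regions had a dexamethasone counterpart. In all, 537 estradiol regions had no dexamethasone counterpart, and among them the GREB1 regions ranked 50 and 153 by p-value and the CCND1 region 384.

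The dexamethasone regions were set beside regions of their own strength in the same way. At the strength of the NRIP1 and SIAH2 regions, 44.8% of the decile overlapped an estradiol region. At that of the GREB1 region in the gene body it was 27.0%, at that of the other GREB1 region and the CXCL12 region 20.9%, and at that of the MYC region 18.9%. Lacking an estradiol counterpart was the more common state at all these strengths. Vehicle counterparts were rarer still, at 12.3% in the decile of NRIP1 and SIAH2 and 2.97% in that of MYC.

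**Figure D3:**
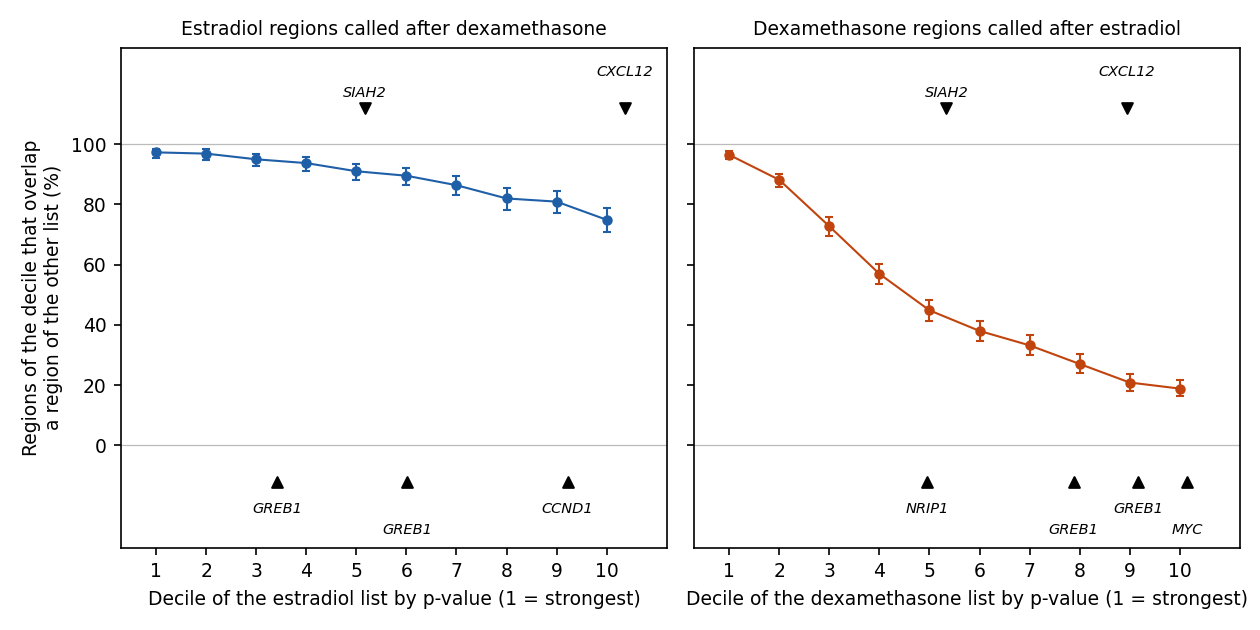
Share of regions that overlap a region of the other hormone's list, by decile of the list from strongest to weakest (points, with exact 95% intervals), for the estradiol list on the left and the dexamethasone list on the right. Triangles place the gene-window regions by rank, above the plot when shared and below it when not; the 2 GREB1 estradiol regions and the CCND1 region sit below deciles of which 80.9% to 94.97% were shared.

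The surroundings of the windows were described as well, out to 500 kb on each side, a distance chosen after the values were seen. This span of 11.48 Mb held 3 vehicle, 37 dexamethasone, 22 estradiol and 0 combination regions. At the mean densities of the lists it would hold 8.18, 35.8, 20.3 and 0.621. Every gene had a dexamethasone region within this distance, 9 had an estradiol region (all but XBP1) and 3 had a vehicle region (GREB1, TFF1 and SIAH2). The nearest combination region to any window was 2213 kb away, at CXCL12.

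Merged, the span held 42 sites: 20 in the dexamethasone list alone, 14 in both hormone lists, 5 in the estradiol list alone and 3 in vehicle, dexamethasone and estradiol. All 3 vehicle sites were thus called after either single hormone, which is the usual state of the vehicle list. By decile of that list, 92.7% to 100% of regions overlapped a dexamethasone region and 75.5% to 99.5% an estradiol region. Of the 37 dexamethasone regions, 20 overlapped no estradiol region (54.1%, 36.9 to 70.5), near the 50.3% over the whole dexamethasone list. Of the 22 estradiol regions, 5 overlapped no dexamethasone region (22.7%, 7.82 to 45.4), against 11.3% over the whole list. Besides those at GREB1 and CCND1 they were a region 32.4 kb above the SIAH2 window (20 tags, 10.4-fold) and the region 432.9 kb above CA12. Of the 17 estradiol regions outside the windows, 15 overlapped a dexamethasone region, against 2 of 5 inside. Over the whole estradiol list 88.7% did, so the regions outside were near the usual share. The difference was not tested.

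**Figure D4:**
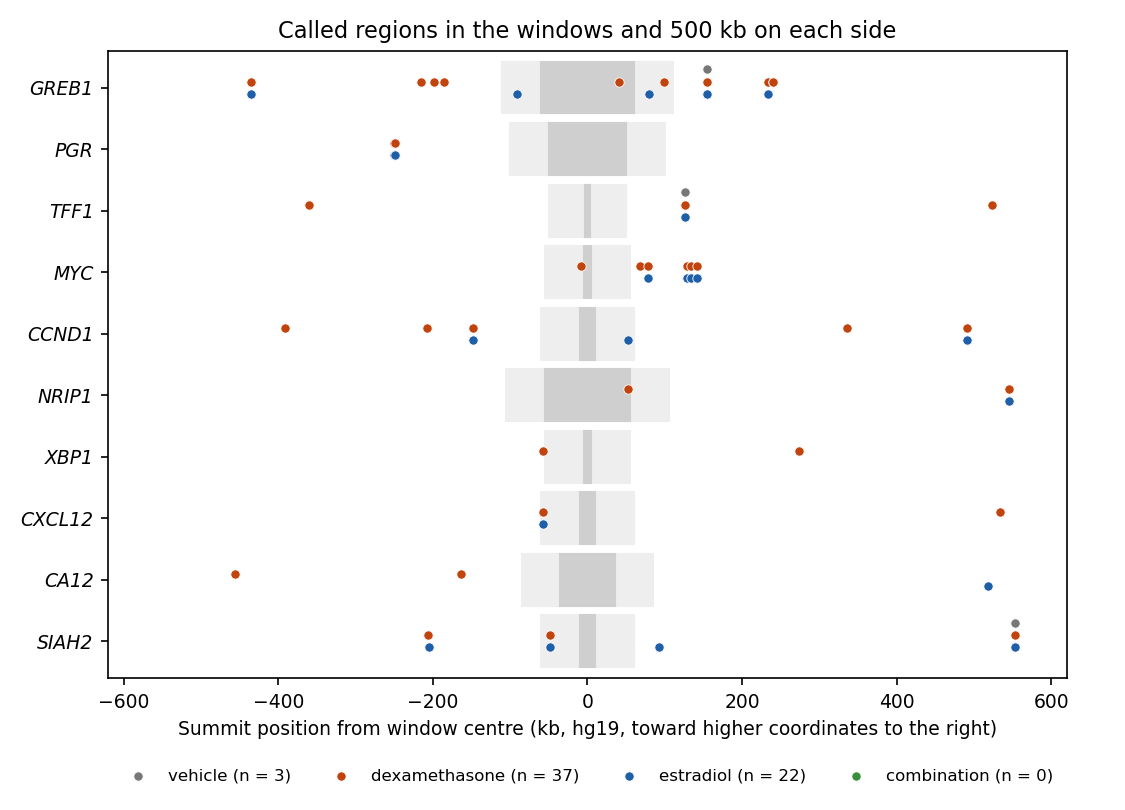
Summits of called regions in each window and 500 kb on each side, in kb from the window's centre, with 1 colour per library and windows and rounded gene bodies as pale and dark bars. Most sites away from the windows carry a dexamethasone point; vehicle points appear at 3 sites, 44.3 kb from the GREB1 window, 76.4 kb from that of TFF1 and 493.0 kb from that of SIAH2, and MYC has a run of 5 dexamethasone points above its window.

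By p-value, the strongest site of this span in the estradiol and dexamethasone lists was near GREB1, 44.3 kb above its window, on the side of LPIN1. In the vehicle list the TFF1 site above was stronger. The GREB1 site was called with vehicle (11884294 to 11884425, 26 tags, 10.3-fold), after dexamethasone (11884274 to 11884472, 36 tags, 12.003-fold) and after estradiol (11884261 to 11884422, 39 tags, 14.5-fold). In the estradiol list it stood in the top 0.817% by p-value, in the dexamethasone list at 7.62% and in the vehicle list at 15.2%, where the TFF1 site stood at 7.21%, 8.73% and 11.18% in the same order. Tag numbers are not scaled to depth, so they cannot be compared between libraries, and ranks in lists of different lengths show no change.

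Around MYC, the sites lay on 1 side. Above the window, on the side of the noncoding gene PVT1, 5 dexamethasone regions lay between 12.5 and 87.04 kb from the window's edge. Whether they lay within PVT1 was not determined. Of these 5, 4 overlapped an estradiol region, and over the whole dexamethasone list 49.7% did. The strongest after dexamethasone, from 128889140 to 128889327, had 30 tags and 10.3-fold enrichment. The same site had 19 tags and 6.90-fold enrichment in the estradiol list. After estradiol the highest fold was 9.96, at the site from 128832781 to 128832891 with 20 tags. No region was called on the other side of MYC within 500 kb in any library, apart from the weak dexamethasone region just upstream of the gene.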

How the data were processed

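Each of the 4 libraries came with 1 table of called regions. Per the file headers, the authors called them with MACS 2.1.0.20140616 on that library alone, with no control, at a p cutoff of 1e-10, keeping 1 tag per position and using a background window of 10000 bp and an effective genome of 2.7 Gb. Bowtie 1.1.2 and hg19 are named in the submitters' processing notes. The deposited pileup signal counts 50 bp tags extended to the modelled fragment length with no scaling for depth. The authors' fold enrichment divides the pileup by the local background, each plus 1: with the background recovered this way, a Poisson tail gave 100% of the deposited p-values to within 0.01 (−log10 scale). Deposited q-values are −log10 too. All per-region values are the authors'.

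A region was in a window, and regions were shared, at an overlap of at least 1 bp. Ranks follow the deposited p-value. Shares carry exact Clopper-Pearson 95% intervals. Overlap counting was checked on simulated data. Python 3.11.15, pandas 2.3.3, numpy 2.4.6, scipy 1.17.1 and matplotlib 3.10.9 were used. All 10 genes and all regions in their windows are named; the NRIP1 sequences were chosen for display after the values were seen. The genes, windows, gene lists and motifs were chosen with earlier results of these data known. Gene order, strand and promoter sequences come from RefSeq on GRCh38.p14, and no coordinates were converted. An hg19 annotation was not used here, so sites carry no exon or intron labels. Whether a site lay in or at the start of a neighbouring gene was not determined, and neighbours are named by gene order only. Neither cell type markers nor a list of further estrogen-induced genes were analysed. RefSeq promoter sequences of GREB1, TFF1, MYC and CCND1 were not used here.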

Additional observations from a re-analysis of the deposited data

How the results depend on the processing

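With so few regions, most counts depend on the window and the list length. Of 59 alternative values for 8 counts, 35 were within 1.5 times the reported one. With lists cut to the length of vehicle's, 0 dexamethasone regions and 1 estradiol region (GREB1) lay in the windows, and as many lacked a vehicle counterpart. With windows wider by 50 kb, there were 1 vehicle, 10 dexamethasone and 8 estradiol regions, and 4 were shared by the hormones. With windows narrower by 25 kb, there were 3 dexamethasone regions and 1 estradiol region, all without a vehicle counterpart, 0 were shared, and 1 estradiol region lacked a dexamethasone counterpart. Shared sites numbered 1 under a −log10 q of at least 10, when 50% of the shorter region had to overlap, and with lists as long as estradiol's. With windows wider by 500 kb, chosen after seeing the data, the counts were 3, 37 and 22 regions for vehicle, dexamethasone and estradiol, 34 and 19 hormone regions without a vehicle counterpart, 17 shared and 5 estradiol regions without a dexamethasone counterpart. Extension by 500 bp moved no count past 1.5 times. A fold enrichment of at least 5 and summits inside the window could not change the counts. The lowest fold in the windows was 6.56, and every region there had its summit inside. The values under these settings are among the 35, so that number overstates stability. The combination count was 0 wherever it was computed, but its list of 146 regions would hold only 0.0800 in the windows at its mean density. No paired analysis was possible because each treatment had 1 library. Depth and fragment length differ between the libraries, and their part in any difference was not tested.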
